A study of Mus musculus with 17 samples.

Results

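Crystallins are the proteins that fill the fibre cells of the lens and give it its refractive power, and 8 of their genes were examined in cultured mouse retinal cells: *Cryaa*, *Cryab*, *Cryba1*, *Cryba4*, *Crybb1*, *Crybb2*, *Crybb3* and *Crygs*. They were taken from the 18836 genes listed in at least 1 library, and the set was chosen from measured values, since *Crybb2* was among the largest falls with bFGF on day 7 and the other 7 are crystallin genes listed in some library. The day 7 contrast with bFGF is therefore given as a description, and tests were run on days 1, 3 and 5 and on CHIR99021. The cells were mouse neural retinal progenitor cells (mNRPCs) grown out from the neural retina of adult C57BL/6 mice on Matrigel. They were kept in basic medium with N2 and B27 supplements (BM), in BM with basic fibroblast growth factor (group B), in BM with CHIR99021, an inhibitor of glycogen synthase kinase 3 that raises Wnt signalling (group C), or in BM with both (group BC). The paper describes growing out and expanding these cells in BM with both bFGF and CHIR99021. Groups BM and C therefore lacked the bFGF of that earlier medium, and groups BM and B its CHIR99021. RNA was sequenced on days 1, 3, 5 and 7 and in a day 0 control, with 1 library per treatment and day and 17 in all, so the spread between cultures was not measured.

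α-Crystallins (*Cryaa*, *Cryab*) belong to the small heat shock proteins, a family of chaperones that hold unfolding proteins in solution. *Cryab* is also made outside the lens, in muscle, glia and many stressed cells, whereas *Cryaa* is largely a lens gene. β-Crystallins (the *Cryba* and *Crybb* genes) and γ-crystallins (*Crygs* and the other *Cryg* genes) share another fold and serve as structural proteins of the lens, although several have also been found in the neural retina.

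Library totals ran from 17571973 to 19428744 expected counts, so depth was even. Of the genes that define retinal progenitors, *Rax* and *Six6* were below an FPKM of 1 in all 17 libraries, while *Pax6*, *Six3* and *Sox2* were present throughout. All 8 rod genes and all 4 astrocyte genes looked for were below 1 everywhere. Of 8 Müller glia genes 6 reached 1 in some library, led by *Vim* (1228.60 to 4282.33) and *Dkk3* (9.62 to 212.76), while *Rlbp1* and *Slc1a3*, which define these cells, stayed below 1. Values are in FPKM, fragments scaled by transcript length and library total, which allows levels to be compared between genes. Genes were listed from an FPKM of 0.01, and a gene that was not listed in a library is given as 0 there.

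*Cryab* was by far the most abundant member. It made up between 64.1% (C on day 7) and 99.9% (B on day 7) of the summed FPKM of the 8 genes. In the day 0 control *Cryab* stood at 359.41, and the other 7 members together reached an FPKM of 0.70. Of these 7, *Crybb3* (0.21), *Cryba4* (0.15), *Cryaa* (0.14), *Crybb1* (0.12) and *Crygs* (0.08) were listed at day 0, whereas *Crybb2* and *Cryba1* were not. On day 7 in C the order by level was *Cryab* (784.12), *Crygs* (383.06), *Crybb2* (40.57), *Cryba1* (7.34), *Crybb1* (3.44), *Crybb3* (2.95), *Cryaa* (0.60) and *Cryba4* (0.48). In B on the same day *Cryab* was followed by *Cryba4* (1.11), and *Crybb2* and *Cryba1* were at 0. With 1 library a condition, neighbours in these orders could not be told apart beyond a spread between cultures.

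**Figure D1:**
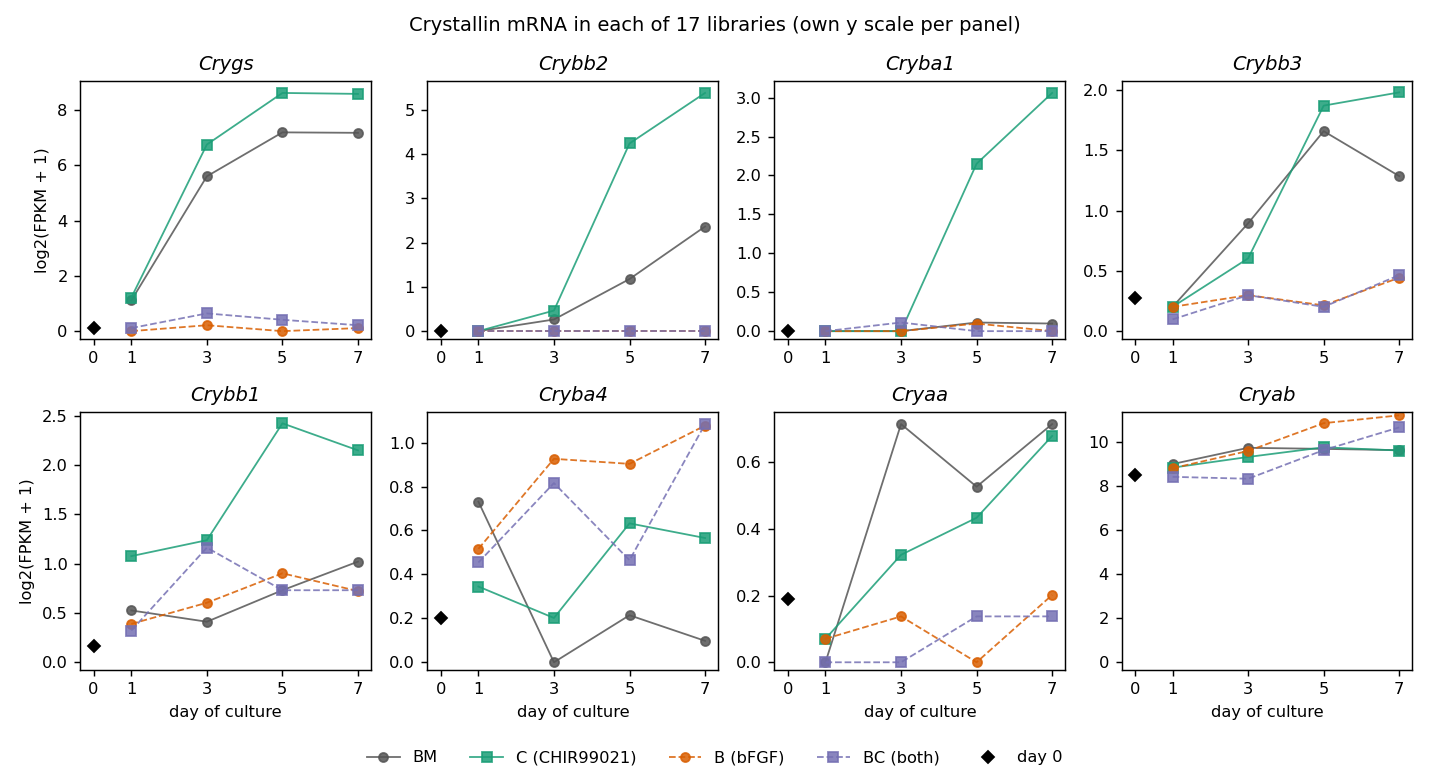
Level of each of the 8 crystallin genes, as log2(FPKM + 1), against the day of culture, with 1 point per library, lines joining libraries of the same treatment, and a y axis of its own in each panel. *Crygs*, *Crybb2* and *Crybb3* rose in BM and C (solid lines) and stayed near 0 in B and BC (dashed lines), *Cryba1* left 0 in C on days 5 and 7, and *Cryab* was highest in B on days 5 and 7.

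The genes lie on 5 chromosomes (GRCm38.p6, the mm10 build; RefSeq positions). *Cryba4* (chr5:112246492-112263625, minus strand), *Crybb1* (chr5:112254563-112269585, plus strand), *Crybb2* (chr5:113058258-113070117, minus strand) and *Crybb3* (chr5:113075839-113082236, minus strand) sit within 836 kb of chromosome 5. The spans of *Cryba4* and *Crybb1* overlap on opposite strands, and the sources used here do not state that counting used the strand. Reads from a stretch in both transcripts could then not be told apart. The expected counts of both genes were whole in every library, so they show no read divided between the 2. *Cryab* (chr9:50745951-50756636, plus strand) overlaps *Hspb2* (minus strand) and *2310030G06Rik*. The expected counts of *Cryab* and *Hspb2* were not whole (8402.83 and 339.17 in BM on day 1). *Crybb2* and *Crygs* each overlap an annotated gene known only by a model name. *Cryba1* is at chr11:77718614-77725293 (minus strand), *Crygs* at chr16:22805203-22811410 (minus strand) and *Cryaa* at chr17:31677931-31681730 (plus strand).

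The stretch around the transcription start, from 250 bases before it to 50 bases after it, is shown for 5 members: *Crygs*, *Crybb2* and *Cryba1*, whose reads came nearly all from libraries without bFGF, and the overlapping pair *Crybb1* and *Cryba4*. Capitals mark matches on either strand to 4 motifs. The first, TGCTGA, is the core of the site that Maf transcription factors bind. AP-1 factors, made of Fos and Jun proteins, bind the letters TGANTCA. The TATA box was searched as TATAAA, and the core of a heat shock element, which heat shock factors bind, as GAANNTTC. The windows, from RefSeq in GRCm38.p6 and written 5′ to 3′ on the strand of the gene, are *Crygs* (chr16:22811361-22811660), *Crybb2* (chr5:113070068-113070367), *Cryba1* (chr11:77725244-77725543), *Crybb1* (chr5:112255570-112255869) and *Cryba4* (chr5:112252469-112252768).
Crygs: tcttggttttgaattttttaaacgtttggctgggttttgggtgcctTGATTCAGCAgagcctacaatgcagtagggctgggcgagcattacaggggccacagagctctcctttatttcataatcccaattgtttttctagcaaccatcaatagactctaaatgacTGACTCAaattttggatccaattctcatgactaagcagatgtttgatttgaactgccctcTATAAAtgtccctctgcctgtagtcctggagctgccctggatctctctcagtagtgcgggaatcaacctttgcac
Crybb2: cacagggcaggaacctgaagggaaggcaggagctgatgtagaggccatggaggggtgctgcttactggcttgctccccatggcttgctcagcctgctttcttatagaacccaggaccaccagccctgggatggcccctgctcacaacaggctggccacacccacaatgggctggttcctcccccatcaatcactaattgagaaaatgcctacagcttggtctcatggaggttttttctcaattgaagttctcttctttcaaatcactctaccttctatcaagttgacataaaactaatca
Cryba1: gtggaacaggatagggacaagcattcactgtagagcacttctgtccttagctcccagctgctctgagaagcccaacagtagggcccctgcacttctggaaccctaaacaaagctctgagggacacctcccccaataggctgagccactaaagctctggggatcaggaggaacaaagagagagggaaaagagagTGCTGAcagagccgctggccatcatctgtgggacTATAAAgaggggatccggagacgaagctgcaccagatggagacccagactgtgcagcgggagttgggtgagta
Crybb1: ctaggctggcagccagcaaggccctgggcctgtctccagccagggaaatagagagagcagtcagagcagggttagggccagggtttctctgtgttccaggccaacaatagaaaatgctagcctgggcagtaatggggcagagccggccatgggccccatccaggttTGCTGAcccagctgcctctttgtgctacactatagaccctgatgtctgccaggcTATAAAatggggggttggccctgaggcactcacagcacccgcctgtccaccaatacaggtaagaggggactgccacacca
Cryba4: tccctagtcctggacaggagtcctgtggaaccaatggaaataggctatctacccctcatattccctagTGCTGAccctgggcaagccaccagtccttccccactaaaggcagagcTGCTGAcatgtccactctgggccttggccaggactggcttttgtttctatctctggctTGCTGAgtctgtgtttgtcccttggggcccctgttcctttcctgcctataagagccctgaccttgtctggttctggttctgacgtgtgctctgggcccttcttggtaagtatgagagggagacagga

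Windows were at hand for 7 of the 8 members, all but *Cryab*. The Maf core was in 6 of the 7 and in 19.5% of 32851 mouse promoter windows of the same length. *Cryba4* held it at 3 places, and *Cryaa*, *Cryba1*, *Crybb1*, *Crybb3* and *Crygs* at 1 each. In *Crygs* it overlapped the upstream of its AP-1 matches, and the first capitals in its line cover both. AP-1 matches were in *Crygs* and *Cryaa* (7.81% of all windows), a TATA box in *Crygs*, *Cryba1* and *Crybb1* (13.6% of all windows), and the heat shock core in none of the 7 (7.86% of all windows). The *Crybb2* window held none of the 4 motifs. Other *Crybb2* transcripts are annotated to start further downstream, and those starts were not searched. The annotated spans of *Cryba4*, *Crybb1* and *Crybb3* reach further upstream than their windows, and the sequence there was not searched either. A match describes letters only.

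**Figure D2:**
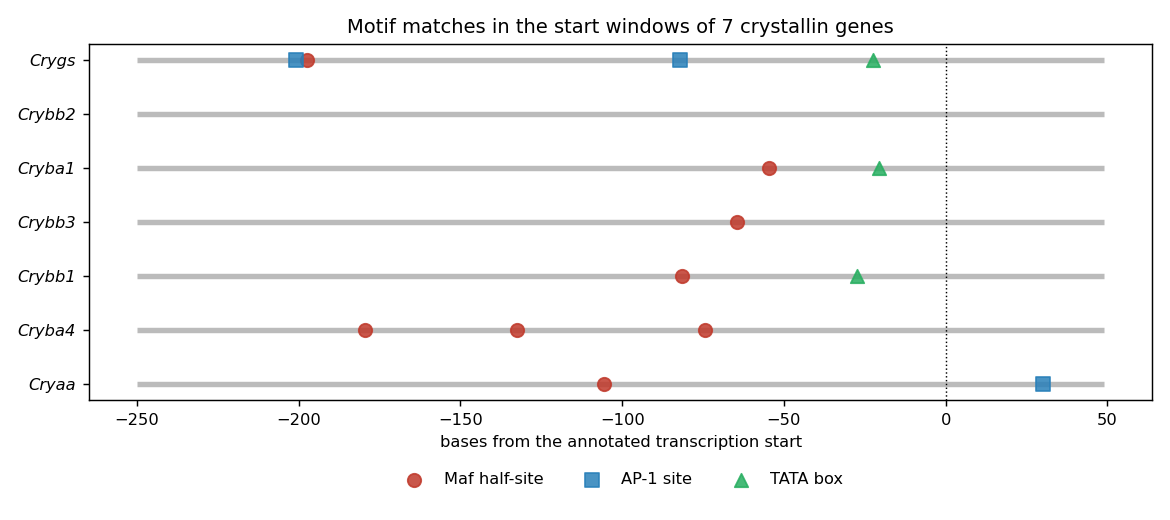
Positions of Maf core (circles), AP-1 (squares) and TATA box (triangles) matches in the start windows of 7 crystallin genes, in bases from the annotated transcription start (dotted line). The Maf core was found in 6 of the 7 windows and *Crybb2* had no match.

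The first question was how the members behaved with and without bFGF on days 1, 3 and 5. Over all genes the difference was broad: with edgeR's quasi-likelihood test on 12 libraries, 74.2% of 11254 genes differed with bFGF on average over the 3 days at an adjusted p (Benjamini-Hochberg) below 0.05. The shares were 8.65% on day 1, 50.2% on day 3 and 75.4% on day 5, so a call on day 5 was the common outcome for any gene. The filter on low values, an FPKM averaging 1 or more over those libraries, was passed by 4 of the 8 members, *Cryab*, *Crybb1*, *Crybb2* and *Crygs*. Since *Crybb1*, *Crybb2* and *Crygs* passed it through the libraries without bFGF alone, their number is not read as a result. The test takes its spread from libraries with and without CHIR99021 within the same day and bFGF condition, and not from repeated cultures. In bulk RNA, fewer cells of a type and less RNA per cell cannot be told apart.

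*Crygs* encodes γS-crystallin, the γ-crystallin that goes on being made in the adult lens. On day 1 BM had an FPKM of 1.16 and C of 1.32, while B was at 0 and BC at 0.08. On day 3 BM reached 47.58 and C 106.83, with B at 0.16 and BC at 0.56. On day 5 BM reached 145.33 and C 392.25, with B at 0 and BC at 0.33. Every library without bFGF was above every library with it on each of these days. The log2 fold change with bFGF was -7.48 (SE 0.32, edgeR adjusted p = 2.38e-07) on average over the 3 days, -7.64 (SE 0.29, adjusted p = 2.84e-06) on day 3 and -10.14 (SE 0.31, adjusted p = 1.62e-07) on day 5. In reads, BM held 1824 on day 5 and B none, which is at least 587-fold lower against a floor of 3 counts. C held 4915 and BC 4, a ratio of 1181 (95% interval of counting error alone 461 to 4338). On day 1 the fold change was -4.67 (SE 0.83, adjusted p = 0.0137), resting on 15, 18, 0 and 1 reads, and the call was lost without the BM library (adjusted p = 0.0679), without B (0.0649), without BC (0.169) or with limma on log2(FPKM + 1) (0.0592). On day 7, in the contrast the choice of genes had used, BM stood at 143.62 and C at 383.06, while B had 0.08 and BC 0.16.

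*Crygs* also rose with time where bFGF was absent. From day 1 to the mean of days 3 and 5 its log2 change was 6.80 (SE 0.23, edgeR adjusted p = 1.89e-07) without bFGF, where 70.5% of all genes changed. With bFGF the change was 2.58 (SE 1.10, adjusted p = 0.0581), on at most 7 reads in a library, where 73.4% of all genes changed. With bFGF it was called under limma with a pseudocount of 0.1 (0.00895) and without BM (0.0336) or C (0.0336) of day 1 or B of day 5 (0.0338). The difference between these changes was -4.22 (SE 2.36) and was not called by edgeR (adjusted p = 0.159), but was called by DESeq2 (0.0334) and by limma on log2(FPKM + 1) (2.77e-05). Over all genes 52.8% were called in that comparison. From day 5 to day 7 the level moved little in BM (145.33 and 143.62) or in C (392.25 and 383.06), for which no test was run.

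*Crybb2*, which encodes a major β-crystallin of the lens, was at 0 in all 8 libraries with bFGF, in the day 0 control and in the 4 libraries of day 1. Its FPKM in BM was 0.20 on day 3, 1.26 on day 5 and 4.14 on day 7. In C it was 0.38 on day 3, 17.85 on day 5 and 40.57 on day 7. The libraries without bFGF were thus the only ones of the 17 with a *Crybb2* read, and all 6 of days 3 to 7 had some. On day 3 there were 3 reads in BM and 5 in C, and the fitted change with bFGF was not called (edgeR adjusted p = 0.102) unless C of day 3 was left out (0.0422). On day 5 there were 17 reads in BM, at least 5.47-fold more than in B, and 254 in C, at least 81.4-fold more than in BC, both against a floor of 3 counts. The day 5 difference was called by edgeR (adjusted p = 0.000677) and not by DESeq2 (0.12). With no read on day 1 in any group, the average over the 3 days could not be tested in this fit. It was called under the additive model (0.0154) and under limma with a pseudocount of 1 (0.033) or 0.1 (0.00218). The rise from day 1 without bFGF was called by edgeR (adjusted p = 0.0062), and not by DESeq2 (0.173) or when C of day 1 was left out (0.166). On day 7, the contrast that brought *Crybb2* into the set, BM had 60 reads and C 588, and neither B nor BC had any.

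*Cryba1* and *Crybb3* encode further β-crystallins. *Cryba1* was seen in 2 libraries beyond single reads, with an FPKM of 3.44 (50 reads) in C on day 5 and 7.34 (108 reads) in C on day 7. BM had 1 read on each of these days, and no library with bFGF had more than 1 read on any day. *Crybb3* had an FPKM of 0.15 on day 1 in BM, C and B, and of 0.07 in BC. BM reached 0.86 on day 3 and 2.16 on day 5, and C reached 0.52 and 2.66, while the values with bFGF were between 0.15 and 0.23. On day 7 BM had 1.44 and C 2.95, and B had 0.36 and BC 0.38. *Crybb3* was therefore higher in both libraries without bFGF from day 3 on. Neither gene passed the filter on low values. In the fit with no filter, *Crybb3* was lower with bFGF on day 3 (log2 fold change -1.80, edgeR adjusted p = 0.0199), on day 5 (-3.03, 0.00016) and on average (-1.58, 0.00332), where 31.8%, 51.7% and 50.1% of 18362 genes were called. Without bFGF it rose from day 1 (3.27, adjusted p = 0.000118), where 46.4% of genes were called. *Cryba1* was called as lower with bFGF on day 5 (adjusted p = 0.0181), which rests on the 50 reads in C.

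**Figure D3:**
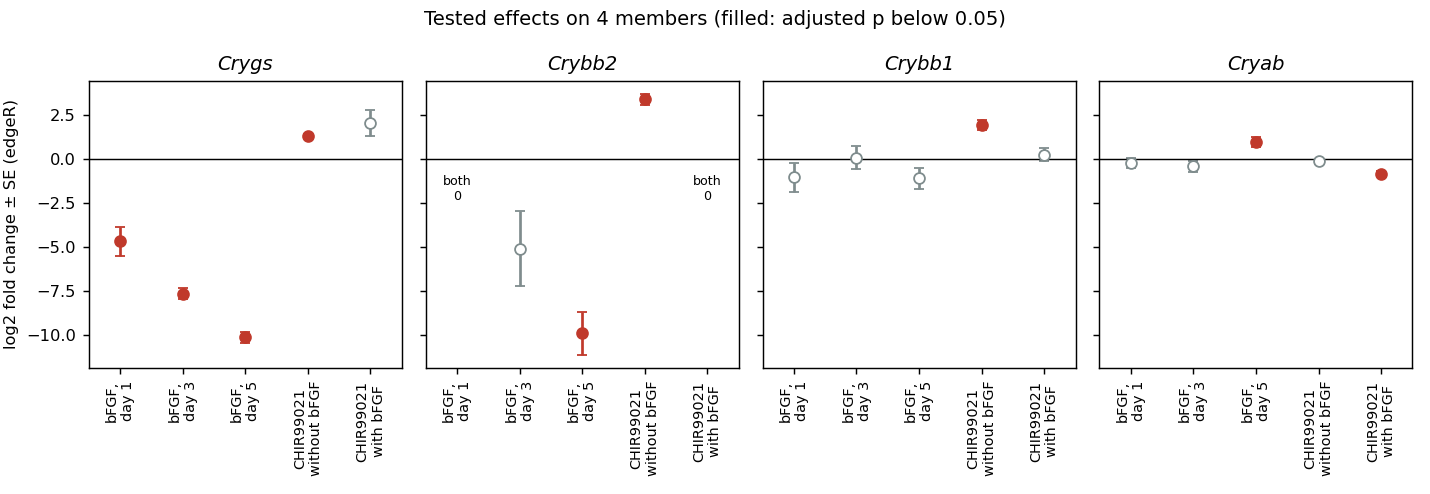
Log2 fold changes with their SE from edgeR for the 4 members that passed the filter on low values: bFGF against none on days 1, 3 and 5, and CHIR99021 against none without and with bFGF over days 1 to 7. Filled points have an adjusted p below 0.05, and "both 0" marks a contrast with no read on either side. *Crygs* was at -4.67, -7.64 and -10.14 with bFGF on days 1, 3 and 5, while *Cryab* was at 0.97 on day 5.

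*Crybb1* and *Cryba4*, the overlapping pair of β-crystallin genes, were low throughout. *Crybb1* ran from 0.33 to 1.03 in BM and from 0.31 to 0.87 in B over days 1 to 7. In C it ran from 1.11 to 4.37 and in BC from 0.25 to 1.24. Its difference with bFGF was not called on average (log2 fold change -0.69, SE 0.41, edgeR adjusted p = 0.154) or on day 1 (-1.04, 0.449), day 3 (0.09, 0.928) or day 5 (-1.10, 0.124). Without BM or B of day 5 the average was called (0.0464 and 0.0392). On day 5 it was called under library totals in place of TMM scaling (-1.53, adjusted p = 0.0393) and without BM (0.0253) or B (0.0234). On day 3 *Cryba4* had an FPKM of 0.90 in B and 0.76 in BC, while C had 0.15 and BM 0, so both libraries with bFGF were higher. On day 5 B had 0.87, C 0.55, BC 0.38 and BM 0.16, and the groups overlapped. On day 7 the values were 1.12 in BC, 1.11 in B, 0.48 in C and 0.07 in BM. In reads no *Cryba4* value exceeded 19. In the fit with no filter *Cryba4* was higher with bFGF on day 3 (log2 fold change 3.65, edgeR adjusted p = 0.0136) and on average (1.69, 0.0138), and was not called on day 5 (1.22, 0.235).

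*Cryaa*, the α-crystallin of the lens, never exceeded an FPKM of 0.64 or 13 reads. From day 3 on it was at 0.25 to 0.64 without bFGF and at 0 to 0.15 with it, and the groups did not overlap on any of these 3 days. Its difference with bFGF was not called on day 3 (adjusted p = 0.0795) or day 5 (0.135) in the edgeR fit with no filter, and its rise from day 1 without bFGF was (log2 change 3.75, adjusted p = 0.0227).

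*Cryab*, the α-crystallin of many tissues, followed another course. On day 1 BM had an FPKM of 511.71 and C of 456.72, and B had 448.61 and BC 341.81. On day 3 BM had 854.11 and C 639.76, and B had 772.97 and BC 321.77. On day 5 BM had 825.39 and C 867.38, and B had 1855.50 and BC 794.04. Both libraries with bFGF were below both without it on day 1, the groups overlapped on days 3 and 5, and B alone stood out on day 5. The difference with bFGF was 0.10 on the log2 scale on average (SE 0.17, edgeR adjusted p = 0.607), and was not called on day 1 (-0.24, 0.656) or day 3 (-0.42, 0.266). On day 5 it was 0.97 (SE 0.30, adjusted p = 0.0154). That call did not survive library totals in place of TMM scaling (0.52, adjusted p = 0.132), limma on log2(FPKM + 1) (0.135) or on log2(FPKM + 0.1) (0.136), or leaving out BM (0.156) or B (0.194) of day 5. Library totals moved the median of all genes on day 5 from -0.02 to -0.46, so *Cryab* was above the median gene under either scaling. On day 7, as a description, BM had 792.85 and C 784.12, and B had 2374.23 and BC 1625.12, so both libraries with bFGF were higher.

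From day 1 to days 3 and 5 *Cryab* rose with bFGF by 1.23 on the log2 scale (SE 0.27, edgeR adjusted p = 0.00271). Without bFGF it rose by 0.72 (SE 0.27, adjusted p = 0.0352), and that call was lost with DESeq2 (0.0595) and without any of 5 libraries (BM or C of day 1, BM or C of day 3, C of day 5), with a highest adjusted p of 0.249. The difference between the rises, 0.51 (SE 0.37), was not called (adjusted p = 0.269). A dependence of the rise on bFGF was therefore not shown on these days.

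Counted by library, 6 of the 8 members were lower in B and BC than in both BM and C on day 7, *Crygs*, *Crybb2*, *Cryba1*, *Crybb3*, *Crybb1* and *Cryaa*. Of all genes listed that day 51.5% were, and the choice of genes used this contrast. *Cryab* and *Cryba4* were higher in both libraries with bFGF, as were 21.1% of genes. On day 5 the count of members lower with bFGF was 5 of 8 beside 51.5% of all genes, a share near the background. On day 3 it was 4 of 8 beside 34.7%, with *Cryba4* alone higher (23.7% of all genes), and on day 1 it was 3 of 8 beside 28.3%. The members on the lower side changed between days. On day 1 they were *Cryab*, *Crybb1* and *Crygs*, and *Crygs* was the only member on the lower side on all 4 days in FPKM. In TMM-scaled counts, *Cryab* left that side on day 1 and *Cryba1* left it on day 5, when *Cryab* was on the higher side. The share of all genes on the lower side was then 21.4% on day 1, 38.6% on day 5 and 38.0% on day 7.

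The second question was whether CHIR99021 moved the members. Across 16 libraries of days 1 to 7, 19.5% of 11272 genes differed with CHIR99021. The 4 members that passed the filter gave *Crygs* (log2 fold change 1.33, edgeR adjusted p = 5.98e-05), *Crybb2* (3.36, 0.00129), *Crybb1* (1.27, 0.017) and *Cryab* (-0.48, 0.0375). *Crybb2* and *Crybb1* passed the filter through the C libraries alone, the high side of this contrast, so their number is not read against the share of all genes. Under the additive model, without bFGF by day terms, none of these effects was called (*Crygs* 0.0928, *Crybb2* 0.18, *Crybb1* 0.21, *Cryab* 0.676), and on days 1, 3 and 5 alone those of *Crybb1* (0.0667) and *Cryab* (0.0726) were not. The *Crybb2* call was lost with DESeq2 (0.863) and limma on log2(FPKM + 1) (0.169), that of *Crybb1* without BM of day 5 (0.058) or of day 7 (0.0586), and that of *Cryab* in 10 of 16 runs without 1 library (highest adjusted p 0.0786). Because members on this list are near 0 with bFGF, the effect was also fitted separately without and with bFGF, a step chosen after the values had been seen. Without bFGF 7.3% of genes were called, and with bFGF 16.9%.

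In the absence of bFGF, *Crygs*, *Crybb2* and *Crybb1* were higher in C than in BM. *Crygs* was 2.26-fold higher in C on day 3 (95% interval of counting error alone 2.05 to 2.50), 2.70-fold on day 5 (2.56 to 2.85) and 2.67-fold on day 7 (2.53 to 2.82). On day 1 its 18 reads in C and 15 in BM gave a ratio of 1.21 (0.577 to 2.58), so no difference was detectable at that depth. The fitted effect over the 4 days was 1.32 on the log2 scale (SE 0.10, edgeR adjusted p = 3.18e-05). *Crybb2* was 14.95-fold higher in C than in BM on day 5 (9.15 to 26.1) and 9.70-fold on day 7 (7.43 to 12.9), with a fitted effect of 3.39 (SE 0.30, adjusted p = 0.000775) that was not called by DESeq2 (0.874) or by limma on log2(FPKM + 1) (0.0517). *Crybb1* was higher in C on each of the 4 days, by 2.60-fold (1.035 to 7.36), 3.49-fold (1.36 to 10.6), 6.28-fold (3.30 to 13.2) and 3.20-fold (1.83 to 5.89), with a fitted effect of 1.95 (SE 0.29, adjusted p = 0.00238). These intervals cover sampling of reads and not the spread between cultures. The fitted effects include day 7, whose bFGF contrast chose *Crybb2*, and were not refitted on days 1, 3 and 5 alone. *Crybb2* and *Crybb1* also passed the filter through the C libraries, the high side here, so their calls are given as a description.

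*Cryba1* was all but limited to C in the absence of bFGF, with 50 reads against 1 on day 5 (ratio 50.03, counting interval 8.58 to 2015) and 108 against 1 on day 7 (ratio 107, 18.8 to 4261). In the fit with no filter on low values its CHIR99021 effect without bFGF was called (edgeR adjusted p = 9.93e-05), as were 5.14% of genes. *Crybb3* was 1.13-fold higher in C on day 5 (0.717 to 1.78) and 1.46-fold on day 7 (0.923 to 2.32), both with intervals that include 1. *Cryaa* gave 13 reads in each of BM and C on day 7 (ratio 0.990, 0.423 to 2.32).

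With bFGF present, *Cryab* was lower in BC than in B on all 4 days. The FPKM in B and then in BC was 448.61 and 341.81 on day 1, 772.97 and 321.77 on day 3, 1855.50 and 794.04 on day 5, and 2374.23 and 1625.12 on day 7. The fitted effect was -0.84 on the log2 scale (SE 0.14, edgeR adjusted p = 0.00369) and kept its side of the threshold in each run without 1 library (adjusted p from 0.00117 to 0.0218). Without bFGF the effect on *Cryab* was -0.12 (SE 0.14, adjusted p = 0.674). The difference of -0.73 (SE 0.20) was not called by edgeR (adjusted p = 0.127), while DESeq2 called it (0.00898), as did edgeR with no filter (0.03) and without B or BC of day 1 (0.0217). Of all genes 0.692% were called in that comparison. *Crybb1* had an effect of 0.24 with bFGF (SE 0.37, adjusted p = 0.678), and its difference of -1.71 (SE 0.48) from the effect without bFGF was not called either (0.138). *Crygs* had an effect of 2.07 with bFGF (SE 0.74, adjusted p = 0.0717) on 0 to 7 reads a library, called without BM or C of day 1 (0.0476) and with limma at a pseudocount of 0.1 (0.0109), and *Crybb2* had no read there to compare.

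The rest of the crystallin family was nearly silent. Of 8 other lens crystallin genes, *Cryga*, *Crygb*, *Crygd*, *Cryge* and *Crygf* were listed in no library, *Crygc* in 1 (FPKM 0.09), and *Crygn* stayed at or below 0.28. *Cryba2*, a β-crystallin gene on chromosome 1, was the exception and resembled *Cryba1*. It had 80 reads (FPKM 6.13) in C on day 5 and 89 (FPKM 6.73) in C on day 7, at most 2 reads in a BM library and none in any library with bFGF. Of 8 genes that carry a crystallin name or fold but serve elsewhere, 4 were tested and 1 was called on average with bFGF, beside 74.2% of all genes. It was *Crybg1*, a crystallin-fold gene listed under its older symbol *Aim1*, which was lower (log2 fold change -0.92, edgeR adjusted p = 3.09e-06). *Cryzl1*, a relative of *Cryz*, was lower on day 5 (-0.56, adjusted p = 0.00051). *Cryz*, an enzyme recruited as a crystallin in some other mammals, was not called under TMM scaling (-0.03, 0.666) and was lower under library totals (-0.24, 0.00978).

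**Figure D4:**
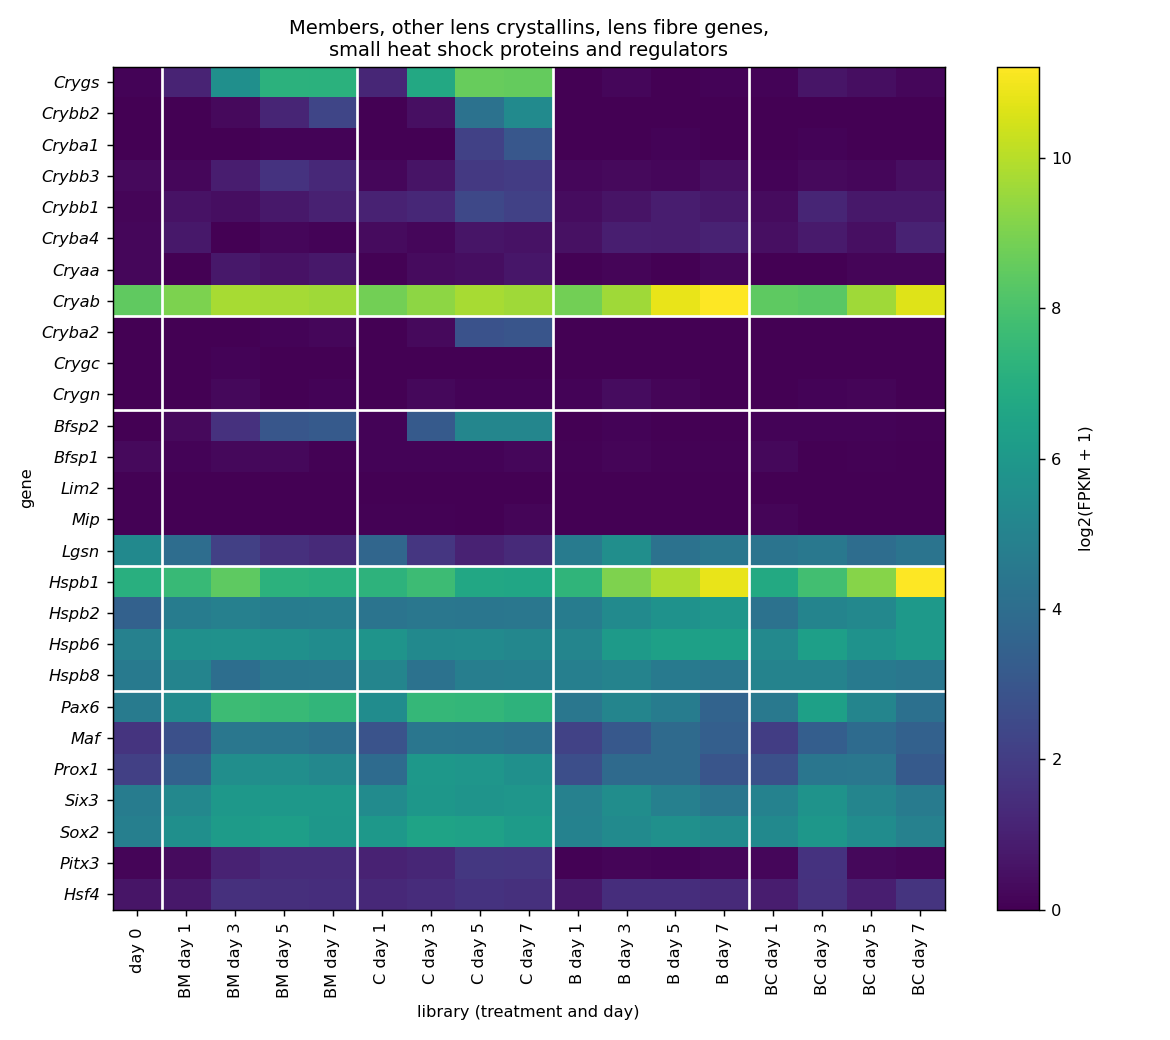
Log2(FPKM + 1) of 27 genes in the 17 libraries, ordered by treatment and day, with white lines between treatments and between gene groups (members, other lens crystallins, lens fibre genes, small heat shock proteins, regulators). *Cryba2* and *Bfsp2* were high in the same C libraries as *Crybb2*, and *Lim2* and *Mip* were near 0 in all 17.

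Lens fibre genes did not follow as a group. Of 13 such genes 4 were tested, and 1 was higher and 1 lower with bFGF on average, beside 74.2% of all genes called in either direction. The one that was lower was *Bfsp2*, which passed the filter on low values through the libraries without bFGF alone, so its place in that count is not read as a result. It encodes phakinin, a subunit of the beaded filaments of lens fibres. BM and C had an FPKM of 2.02 and 8.01 on day 3, 6.92 and 34.92 on day 5, and 8.17 and 34.54 on day 7, while no library with bFGF exceeded 0.07. Its log2 fold change with bFGF was -5.27 (SE 0.67, edgeR adjusted p = 7.26e-05), and with CHIR99021 in the absence of bFGF it was 2.10 (SE 0.20, adjusted p = 0.000139). The one that was higher with bFGF was *Lgsn*, a lens protein related to glutamine synthetases (2.75, SE 0.12, adjusted p = 2.61e-07), at 39.02 on day 0 and at 1.49 in BM and 20.85 in B on day 7. *Birc7* was listed in no library, and *Lim2*, *Mip*, *Bfsp1*, *Gja3*, *Dnase2b*, *Grifin* and *Lctl* were below an FPKM of 1 in all 17. *Lim2* and *Mip*, which encode abundant membrane proteins of lens fibres, and *Grifin*, a lens galectin, reached at most 0.06, 0.12 and 0.11. Of lens epithelium markers, *Foxe3* was at 0 everywhere. *Cdh1* reached 3.22 in C on day 5 and 3.07 in C on day 7, against at most 0.39 with bFGF. *Pitx3*, also on the list of regulators, ran from 1.13 to 2.54 without bFGF on days 3 to 7. With bFGF it was at 0.12 in B and 2.16 in BC on day 3, and at most 0.17 on days 5 and 7. It did not pass the filter on low values. The summed FPKM of the 13 fibre genes ran from 30.9 to 59.9 without bFGF and from 29.4 to 73.4 with it. Only 4 of the 13 reached an FPKM of 1 in any library, and *Tdrd7*, *Lgsn* and *Bfsp2* made up most of these sums. Whether lens-like cells had a part in the crystallin levels was not tested.

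Of 13 regulators of crystallin genes 7 were tested on days 1, 3 and 5, of which 5 were lower and 1 higher with bFGF on average (median log2 fold change -0.52). Calls in either direction were near the 74.2% of all genes called, of which 49.99% were higher. *Pax6*, a master regulator of eye development, had an FPKM on day 5 of 189.60 in BM and 171.78 in C, and of 25.06 with bFGF and 33.37 with both (log2 fold change on average -1.60, SE 0.17, edgeR adjusted p = 2.47e-05). *Prox1*, a homeodomain factor needed for lens fibre elongation, had 45.32 and 57.93, and 13.69 and 20.48 (-1.31, SE 0.07, adjusted p = 4.94e-07), and it was also higher with CHIR99021 (0.43, SE 0.05, adjusted p = 0.000649). *Maf*, whose protein binds the core marked in the windows above, was lower on average (-0.67, SE 0.07, adjusted p = 1.74e-05), though not on day 5 under TMM scaling (-0.06, 0.667), where library totals gave -0.50 (0.00309). *Sox2* and *Six3* were lower on average as well (-0.52 and -0.36). *Hsf1*, the main heat shock factor, was the one that was higher (0.33, adjusted p = 0.00125), and that call was lost under library totals (0.12, 0.097). *Hsf4*, the heat shock factor of the lens, was not called (-0.13, 0.617), and *Sox1* and *Foxe3* were at 0.

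*Cryab* was set beside the other small heat shock proteins. Of 7 such genes 4 were tested, and all 4 were higher with bFGF on average over days 1, 3 and 5 (median log2 fold change 0.62, beside -0.00 for all genes). Of all genes 74.2% were called in either direction, and 49.99% of those calls were higher. On day 1 none of the 4 was called (median -0.16). *Hspb1*, the most abundant of them, had an FPKM on day 5 of 148.52 in BM and 103.26 in C, and of 901.74 with bFGF and 574.35 with both (log2 fold change on that day 2.98, SE 0.19, edgeR adjusted p = 1.06e-06). On day 7 it had 134.77 and 99.63 without bFGF, and 1827.67 and 2357.15 with it. *Hspb2*, the neighbour of *Cryab*, had 24.76 and 20.01 without bFGF on day 5, and 51.65 and 36.91 with it (1.49, SE 0.10, adjusted p = 1.2e-06). *Hspb6* (0.48 on average, adjusted p = 0.0038) and *Hspb8* (0.44, 0.000176) moved less. Under library totals *Hspb6* was no longer called (0.28, 0.0528), and *Hspb8* on day 5 turned from 0.40 to -0.04. *Hspb3*, *Hspb7* and *Hspb9* were below an FPKM of 1 in every library. With CHIR99021 over days 1 to 7, *Hspb1* (-0.50, edgeR adjusted p = 0.0225) and *Hspb2* (-0.33, 0.01) were lower, as *Cryab* was, where 19.5% of all genes were called. The *Cryab* call was lost in 10 of 16 runs without 1 library. Fitted separately without and with bFGF, the CHIR99021 effect was called for none of the 4 genes. On day 7 *Hspb1* (2357.15 and 1827.67) and *Hspb2* (65.08 and 58.91) were higher in BC than in B.

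**Figure D5:**
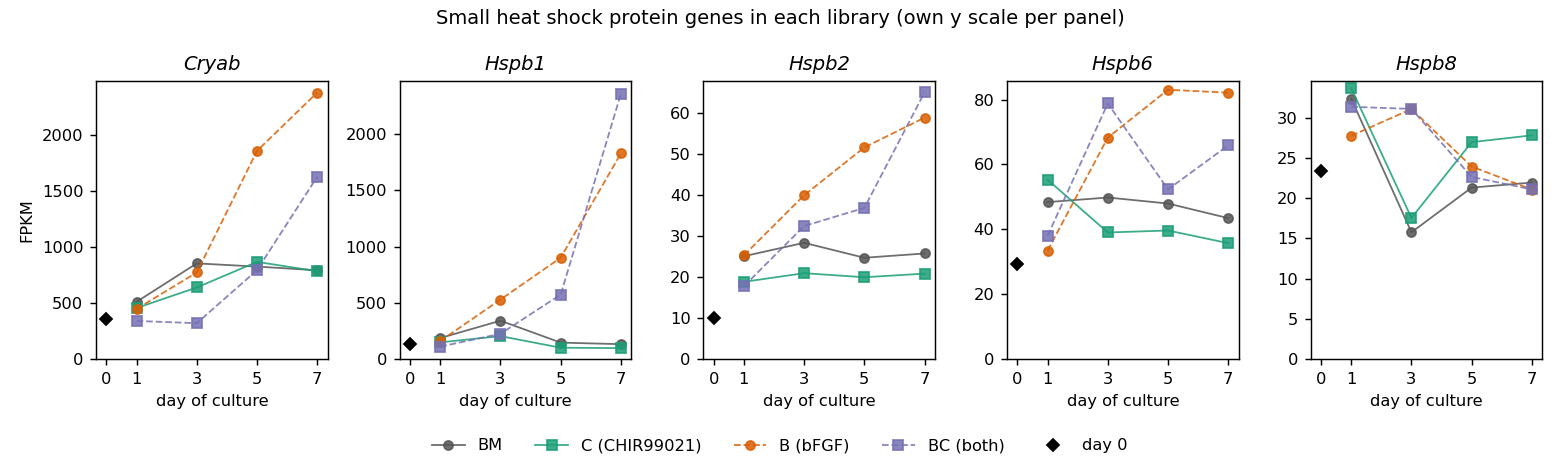
FPKM of *Cryab* and of 4 other small heat shock protein genes against the day of culture, 1 point per library, with a y axis from 0 of its own in each panel. *Cryab*, *Hspb1* and *Hspb2* were higher in B and BC than in BM and C on day 7, and *Cryab* and *Hspb1* were at 1855.50 and 901.74 in B on day 5.

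The genes whose levels most resembled each member were sought among 11258 genes by Pearson's r of log2(FPKM + 1) over the 17 libraries, which share their treatments and days. For *Crygs* they were *Pgm5* (r = 0.991), *Masp1* (0.988) and *Cfb* (0.988). For *Crybb2* they were *R3hdml* (0.994), *Mmp12* (0.955) and *Kctd14* (0.943), and for *Crybb1* *Thrsp* (0.934), *Kctd14* (0.917) and *Fam101a* (0.871). For *Cryab* they were *Rnf181* (0.969), *Crtc2* (0.941) and *Lin52* (0.929). Among the members themselves r was 0.803 between *Crygs* and *Crybb2* and 0.841 between *Crybb1* and *Crybb2*. It was 0.0757, 0.0985 and 0.159 between *Cryab* and *Crygs*, *Crybb2* and *Crybb1*. Pericyte and endothelial genes were also read beside the members, since *Pdgfrb* was higher without bFGF (104.88 in BM and 6.25 in B on day 5). The other 3 of 4 pericyte genes were below an FPKM of 1 everywhere, and 3 of 4 endothelial genes were as well. The fourth, *Kdr*, ran from 0.53 to 1.27 without bFGF on days 3 to 7 and from 0 to 0.11 with it, and the Müller glia gene *Aqp4* ran from 0.54 to 1.53 and from 0.01 to 0.13. The part of such cells in the crystallin levels was not tested.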

How the data were processed

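RNA was sequenced by the authors on the BGISEQ-500 platform from poly-A selected RNA of 17 libraries, 1 per treatment and day. The study's methods name Bowtie 2 for alignment and eXpress for quantification, and the submitters' processing notes name Bowtie2, RSEM and mm10, with no versions. Which program made the tables is not given in the sources used here. Each table deposited by the authors holds expected counts, estimates that need not be whole, and FPKM values, scaled by transcript length and library total. Between 63.9% and 66.6% of listed counts in a library were whole. No 2 libraries held identical values.

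The expected counts were rounded, and genes whose FPKM averaged 1 or more over the libraries fitted entered edgeR 4.0.16 (R 4.3.3), with TMM scaling and the quasi-likelihood test (glmQLFit, glmQLFTest), Benjamini-Hochberg adjustment over all genes tested and a threshold of 0.05. One fit held the 12 libraries of days 1, 3 and 5, with a mean per day and bFGF condition plus a CHIR99021 term (5 residual degrees of freedom). The other held the 16 libraries of days 1 to 7 (7 degrees of freedom, or 6 with a CHIR99021 term for each bFGF condition, added after seeing the data). No treatment and day has a second library, so p-values measure departures from an additive CHIR99021 effect, which may be technical. Ratios of reads have exact binomial 95% intervals, and floors are 3 counts. Both cover counting error only, since no source names molecular identifiers on the reads.

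Alternatives were DESeq2 1.42.0, library totals, no filter, a minimum mean FPKM of 5, limma 3.58.1 with pseudocounts of 1 and 0.1, an additive model, fewer days, and each library left out. Positions and promoter windows are from RefSeq (GRCm38.p6), and strands from GENCODE M21. The members, gene lists, motifs and tests were chosen with earlier results of these data known. All 8 members were named. From other lists at most 5 called genes with the largest changes were named, plus genes at or near 0. *Cryz*, *Cryzl1*, *Hsf1*, *Hsf4*, *Pitx3*, *Kdr* and *Aqp4* were added after their values were seen. For each member averaging an FPKM of 1 or more the 3 most alike genes were named. *Crygs*, *Crybb2*, *Cryba1*, *Crybb1* and *Cryba4* were picked for sequence display after their values were seen. Python 3.11.15, numpy 2.4.6, pandas 2.3.3, scipy 1.17.1 and matplotlib 3.10.9 handled tables and plots.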

Additional observations from a re-analysis of the deposited data

Results flagged for a closer look

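*Cryab* stood out because its difference with bFGF changed direction between days in every pair of libraries. As log2(FPKM + 1) with bFGF minus without it, the mean of the pairs B and BM, and BC and C, was -0.30 on day 1 and -0.57 on day 3, negative in both pairs, and 1.32 on day 7, positive in both pairs. This contrast between days was not tested, since day 7 entered the choice of the genes. On day 5 the pairs went opposite ways, with B above BM and BC below C.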

How the results depend on the processing

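No called value of the 4 members that passed the filter changed direction in the alternatives that were run. Of 810 recomputed values of these 4 members 743 kept their side of the threshold, 42 lost a call and 25 gained one, among them those named beside the results. A missing adjusted p was counted as kept, and so were *Crybb2* contrasts with no read on either side. The count of genes that differed with bFGF over days 1, 3 and 5 was 8350, and 5318 under the additive model without bFGF by day terms. The count for CHIR99021 was 2199, and 38 under the additive model and 1120 on days 1, 3 and 5 only. The spread of the additive model also takes in the bFGF by day differences. With libraries left out in turn, the counts ran from 7772 to 8470 for bFGF, 6272 to 8267 for the change without bFGF, 6764 to 8341 for the change with it, 4314 to 6464 for their difference, and 1550 to 1965 for CHIR99021. Counts that depended more on 1 library were those of bFGF on day 1 (974, 38 without BC of day 1), CHIR99021 without bFGF (823, 238 without C of day 5) and with it (1906, 722 without BC of day 3), and the difference between these (78, from 2 to 632). Under library totals in place of TMM, 30.6% of bFGF calls were higher, against 49.99%, and the median over genes fell from -0.00 to -0.21. The *Crygs* effects of bFGF on average, on day 3 and on day 5 were called in every alternative run. On day 7, the contrast that chose the genes, 6 members were lower with bFGF in FPKM (51.5% of all genes) and in TMM-scaled counts (38.0%). No paired analysis was possible because the labels give no replicate numbers, and libraries were matched by day and CHIR99021 only. *Crybb1* and *Crybb2* have no value at a minimum mean FPKM of 5, nor in runs whose left-out library took them under the filter. At no more than 19 reads a library, *Cryba4* and *Cryaa* limit what could be detected.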
